A study of Homo sapiens with 6 samples.

Results

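The genes described here encode the core of the NF-kB pathway: the 5 DNA-binding subunits (NFKB1, REL, RELA, NFKB2 and RELB), 3 IkB inhibitors (NFKBIA, NFKBIB and NFKBIE) and the 2 catalytic IKK kinases (IKBKB and CHUK). They were chosen by gene symbol, 10 of the 20532 genes counted, and each symbol matched 1 row. RNA was sequenced from M3, a subline of MDA-MB-231, which is an established human line of triple-negative breast cancer. There were 3 control libraries, from cells described only as untreated or control, and 3 libraries from cells in which PRMT1 was knocked down with a small interfering RNA (siPRMT1). PRMT1 is the main enzyme that places asymmetric dimethyl marks on arginines of proteins. All samples come from 1 line, and the sources used here leave unsaid whether control cells were transfected.

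NF-kB factors are dimers of Rel-family proteins that bind DNA at kappaB sites and switch on genes of inflammation and cell survival. In the canonical arm, IkB proteins hold dimers such as RELA with p50 (made from NFKB1) in the cytoplasm until the IKK complex, in which IKBKB does most of the work, marks the IkB protein for destruction. In the non-canonical arm, the kinase NIK (gene MAP3K14) activates CHUK, which drives processing of NFKB2 to p52, the partner of RELB. Basal breast cancer lines are known for constant NF-kB activity, and these libraries measure transcripts of the pathway, not its activity.

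Of the 10 genes, 5 rose and 4 fell after PRMT1 knockdown. REL (4.87-fold lower) and CHUK (4.38-fold lower) fell the most, followed by NFKB1 (1.71-fold) and NFKBIA (1.16-fold). RELA, NFKB2, RELB, NFKBIB and NFKBIE rose by 1.71-fold to 2.16-fold, and IKBKB did not pass the test. The test was edgeR's quasi-likelihood test on read counts, with Benjamini-Hochberg adjustment over all 13710 genes tested and a threshold of 0.05. Across all genes 89.3% passed, 44.3% higher and 45.0% lower, so 9 of 10 is near the background. The control and siPRMT1 libraries did not overlap for the same 9 genes, against 89.1% of all genes. The median log2 fold change (siPRMT1 minus control) was 0.42 over the 10 genes and -0.0082 over all genes tested. With scaling by library size alone these medians were 0.10 and -0.33. In a fit described below, which removes what follows base composition and length, they were -0.046 and 0.068. Whether the 10 genes lay above or below all genes by median thus depends on the processing. All 10 passed the filter on low counts. Levels are given as CPM, the usual per-library scaling of counts, here with TMM library sizes.

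**Figure D1:**
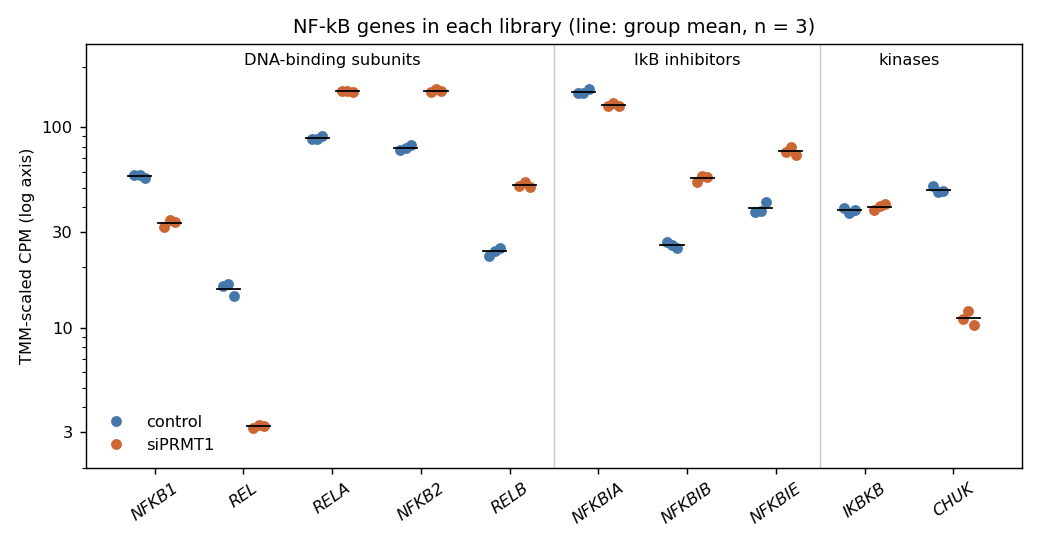
TMM-scaled CPM (log axis) of the 10 genes in each of the 3 control and 3 siPRMT1 libraries, with black lines at the group means. The groups overlap for IKBKB, and REL and CHUK show the widest gaps (15.7 against 3.22 and 48.8 against 11.2 CPM on average).

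Several of these genes are textbook targets of NF-kB itself, so their promoters were searched for the kappaB consensus, a 10-base motif, on both strands, with overlapping matches merged. RefSeq promoter windows (GRCh38.p14, from 250 bases before to 50 bases after a start site) were at hand for 7 of the 10 genes, and 5 of these held a match, against 13.3% of all 27305 genes with a window. One window of 30 bases is shown for each of the 5, on the gene's strand, 5′ to 3′, with the matched bases in capitals. Distances are counted from the RefSeq start site of the promoter window searched, which need not be the deposited gene start given below. For REL the 30 bases shown (from 60881517) lie after the deposited gene start (60881491). The windows of RELA and CHUK held no match.
NFKB1 (chr4:102501300-102501329, plus strand, 49 bases before the start site): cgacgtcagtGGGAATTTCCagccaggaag
REL (chr2:60881517-60881546, plus strand, 47 bases before the start site): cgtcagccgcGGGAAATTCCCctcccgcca
NFKB2 (chr10:102395674-102395703, plus strand, 21 bases before a start site): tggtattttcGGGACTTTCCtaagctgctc
NFKBIA (chr14:35404811-35404840, minus strand, 81 bases before the start site): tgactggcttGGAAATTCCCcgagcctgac
NFKBIB (chr19:38899931-38899960, plus strand, 28 bases before a start site): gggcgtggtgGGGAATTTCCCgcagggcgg
NFKB2 had 4 matches over its 3 windows, NFKBIB 2 over its 2 windows and NFKB1 1 over its 2 windows. Genes with a match moved in both directions: NFKB1, REL and NFKBIA fell, and NFKB2 and NFKBIB rose. RELA rose and CHUK fell without a match in these windows. A match describes the letters only and is no evidence of binding. The other 3 genes are RELB, NFKBIE and IKBKB.

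The libraries held between 16968563 and 20545995 counts. PRMT1 fell from 146 ± 2.93 to 11.9 ± 0.0607 CPM (mean ± SD, n = 3 each), and no control library came near a siPRMT1 library. The share of mitochondrially encoded genes ranged from 5.001% to 5.09% without and from 8.64% to 8.74% with the knockdown, and their part in the results below was not tested. Markers of the line were abundant, with VIM between 1805 and 2378 CPM in every library, while of 5 luminal markers ESR1, PGR and FOXA1 stayed under 1 CPM, GATA3 had 3.23 to 5.697 CPM and ERBB2 59.9 to 74.9 CPM. Of 10 leukocyte markers 8 stayed under 1 CPM in every library, among them PTPRC; CD68 (199 to 374 CPM) and CD14 (4.14 to 8.59 CPM) did not. Of 5 endothelial markers 3, and of 9 fibroblast and bone cell markers 4, were under 1 CPM throughout. PECAM1 had 19.5 to 21.2 CPM, and KDR averaged 4.41 CPM in control and 0.544 CPM in siPRMT1 libraries. COL1A1 averaged 7.05 and 22.9 CPM, and PDGFRB, LUM, BGLAP and CTSK were also above 1 CPM in at least 1 library. Sample titles number the libraries as biological replicates but name no separate transfections or cultures, so the p-values measure the spread between these libraries, which may be technical. In bulk RNA, fewer cells expressing a gene and less RNA per cell cannot be told apart.

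NFKB1 and REL, the canonical subunits other than RELA, fell. NFKB1 (ENSG00000109320; hg38, chromosome 4, 102501330 to 102617299, plus strand) encodes p105, the precursor of p50, and is itself an IkB-like inhibitor before processing. Control libraries had 57.7, 57.5 and 56.0 CPM, and siPRMT1 libraries had 31.7, 34.4 and 33.7 CPM. Every siPRMT1 library lay below every control library, and the fall was 1.71-fold (log2 fold change -0.78, SE 0.0432; edgeR adjusted p = 2.88e-56). REL (ENSG00000162924; chromosome 2, 60881491 to 60923039, plus strand) encodes c-Rel, the subunit best known from lymphocytes. Its 353, 331 and 304 control reads compare with 51, 60 and 49 after knockdown, or 16.1, 16.5 and 14.3 against 3.16, 3.26 and 3.22 CPM. The siPRMT1 values lay close together and far below the controls, 4.87-fold lower (log2 fold change -2.28, SE 0.104; edgeR adjusted p = 1.48e-75). Among the log2 fold changes of all genes tested, REL had the lowest percentile of the 10 genes (3.02), and CHUK followed (4.07).

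RELA (ENSG00000173039; chromosome 11, 65653599 to 65662918, minus strand) encodes p65, the main transactivating subunit of the canonical arm. Unlike its canonical partners it rose, from 87.6, 87.2 and 90.3 CPM to 152, 152 and 149 CPM. The groups did not overlap, and the difference was 1.71-fold (log2 fold change 0.77, SE 0.0279; edgeR adjusted p = 1.33e-104). RELA was thus the canonical subunit that went up while NFKB1 and REL went down.

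Both subunits of the non-canonical arm rose. NFKB2 (ENSG00000077150; chromosome 10, 102394110 to 102402424, plus strand), the p100 and p52 gene, went from 76.9, 78.6 and 81.7 CPM to 151, 154 and 151 CPM. That is 1.92-fold higher (log2 fold change 0.94, SE 0.0285; edgeR adjusted p = 2.43e-130). RELB (ENSG00000104856; chromosome 19, 45001461 to 45037568, plus strand) encodes the partner of p52. Its control values of 22.8, 24.2 and 25.1 CPM became 50.7, 53.2 and 50.1 CPM, 2.14-fold higher (log2 fold change 1.1, SE 0.0472; edgeR adjusted p = 9.40e-83). In both genes the lowest siPRMT1 library stood well above the highest control library.

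The 3 IkB inhibitors did not move together. NFKBIA (ENSG00000100906; chromosome 14, 35401079 to 35404701, minus strand) encodes IkB-alpha, the fast inhibitor that NF-kB resynthesizes to end its own response. It went from 148, 148 and 154 CPM to 128, 132 and 128 CPM, a fall of 1.16-fold without overlap (log2 fold change -0.21, SE 0.0260; edgeR adjusted p = 3.06e-15). NFKBIB (ENSG00000104825; chromosome 19, 38899700 to 38908889, plus strand) encodes IkB-beta, a slower inhibitor. It rose from 26.7, 25.9 and 25.0 CPM to 53.5, 57.3 and 56.5 CPM, 2.16-fold (log2 fold change 1.11, SE 0.0455; edgeR adjusted p = 3.56e-88). With the correction for GC content and transcript length NFKBIB was lower instead (-0.22, edgeR adjusted p = 1.62e-05). It overlaps SIRT2 on the other strand, and since the strand setting of the counting is not given, reads of the 2 genes may not be separated. NFKBIE (ENSG00000146232; chromosome 6, 44258166 to 44265593, minus strand) encodes IkB-epsilon. Its 37.7, 38.3 and 42.4 CPM became 75.6, 79.8 and 73.0 CPM, 1.93-fold higher (log2 fold change 0.95, SE 0.0388; edgeR adjusted p = 8.05e-89).

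Of the kinases, CHUK fell and IKBKB did not pass the test. CHUK (ENSG00000213341; chromosome 10, 100188300 to 100229596, minus strand) encodes IKK-alpha, the kinase of the non-canonical arm. It went from 51.0, 47.3 and 48.3 CPM to 11.1, 12.1 and 10.3 CPM without overlap, 4.38-fold lower (log2 fold change -2.12, SE 0.0585; edgeR adjusted p = 5.12e-145). An antisense long non-coding RNA overlaps CHUK, with the same limit on strand. IKBKB (ENSG00000104365; chromosome 8, 42271302 to 42332037, plus strand) encodes IKK-beta, the main kinase of the canonical arm. Its 39.5, 37.2 and 38.6 CPM overlapped the 38.8, 40.4 and 41.4 CPM of the siPRMT1 libraries (log2 fold change 0.06, SE 0.0450; edgeR adjusted p = 0.177). With scaling by library size alone IKBKB was lower (-0.25, adjusted p = 3.64e-08), so its direction depends on the scaling. Across all genes 88.8% passed with that scaling, 33.5% higher and 55.4% lower. The non-canonical arm therefore held both directions, with CHUK lower and its downstream subunits NFKB2 and RELB higher.

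Ratios of counts between 2 genes within a library do not depend on scaling, and 6 pairs were compared. For each NFKB1 read there were 1.33, 1.37 and 1.46 NFKB2 reads without and 4.75, 4.48 and 4.5 with the knockdown, a rise of 3.30-fold (difference of log2 ratios 1.72). The ratio of REL to RELA went from 0.184, 0.190 and 0.158 to 0.0209, 0.0215 and 0.0216, 8.30-fold lower. The ratio of IKBKB to CHUK went from 0.774, 0.788 and 0.799 to 3.49, 3.35 and 4.01, 4.58-fold higher. Relative to NFKBIA, NFKBIE rose 2.24-fold and NFKBIB 2.50-fold. The ratio of RELB to RELA moved least, from 0.261, 0.277 and 0.278 to 0.334, 0.350 and 0.336, or 1.25-fold. In all 6 pairs the 3 siPRMT1 libraries lay on one side of the 3 control libraries. The two-sided exact permutation test gave p = 0.1 for each pair, which is the smallest value that 3 against 3 allows, and 0.1 after Benjamini-Hochberg adjustment over the 6.

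Levels of different genes were compared per kilobase of the canonical transcript. In control cells NFKBIA was the most abundant (96.3 ± 2.29 CPM per kilobase; SD, n = 3), followed by RELA (35.1 ± 0.671), NFKB2 (26.2 ± 0.812), NFKBIB (21.7 ± 0.701) and NFKBIE (16.8 ± 1.1). NFKB1 (14.1 ± 0.227) and CHUK (13.6 ± 0.533) overlapped, and RELB (10.6 ± 0.504), IKBKB (9.76 ± 0.288) and REL (1.41 ± 0.107) came last. After knockdown the first 5 kept their order, RELB (22.8 ± 0.731) and IKBKB (10.2 ± 0.335) passed NFKB1 (8.21 ± 0.348) and CHUK (3.10 ± 0.245), and REL stayed last (0.289 ± 0.00446). Every other neighbouring pair in either order had no overlap between libraries. The order depends on the length used: per kilobase of the deposited exon length, RELB (8.02 ± 0.379) stood above CHUK (7.08 ± 0.278) and NFKB1 (3.64 ± 0.0586) in control cells already, and after knockdown NFKBIE (29.5 ± 1.33) stood above RELA (27.7 ± 0.296) and NFKB2 (27.2 ± 0.336).

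As a share of the summed per-kilobase level of the 5 subunits, NFKB1 and REL together made up 18.2%, 18.0% and 16.9% without and 5.75%, 6.10% and 6.13% with the knockdown. NFKB2 and RELB together went from 41.4%, 42.2% and 42.8% to 51.4%, 51.9% and 51.6%, while RELA held 40.1% ± 0.333 and 42.3% ± 0.430 (SD, n = 3). With the exon length deposited in the table in place of the canonical transcript, RELA held 37.7% ± 0.404 and 37.2% ± 0.391, so the direction for RELA depends on the length used. NFKBIA made up 71.2%, 71.3% and 71.7% of the inhibitor transcripts in control cells and 51.6%, 50.8% and 51.1% after knockdown. CHUK made up 58.6%, 58.1% and 57.8% of the kinase pair in control cells and 23.9%, 24.6% and 21.4% after knockdown. The pool of kinase transcripts thus went from mostly CHUK to mostly IKBKB. These shares are descriptions and were not tested.

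**Figure D2:**
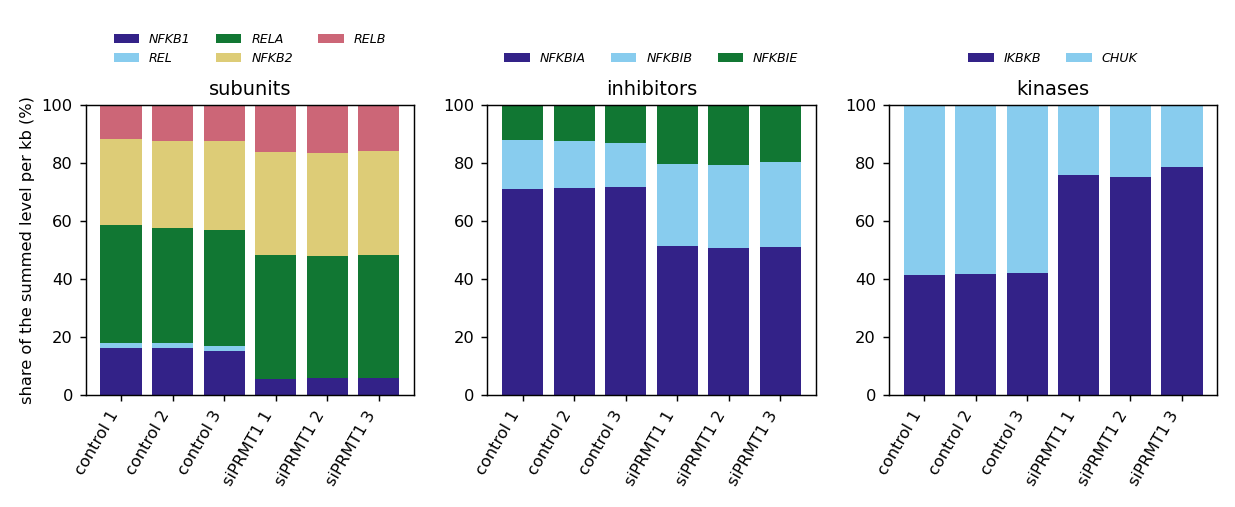
Share of each gene (percent of the summed count per kilobase of canonical transcript) within the subunits, the inhibitors and the kinases, 1 bar for each library. The CHUK share drops from 58.2% to 23.3% on average and the NFKBIA share from 71.4% to 51.2%.

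The order of the fold changes followed the base composition of the transcripts. REL (38.4% GC) and CHUK (38.9% GC) have the most AT-rich canonical transcripts of the 10 and fell the most. NFKB1 (50.1%), IKBKB (52.5%) and NFKBIA (53.0%) lie in the middle in both respects. RELA (58.6%), NFKBIE (60.4%), NFKB2 (61.2%), NFKBIB (64.6%) and RELB (64.9%) are GC-rich and rose. Over the 10 genes Pearson's r between GC content and log2 fold change was 0.99 and Spearman's rho 0.96; the points share the same 6 libraries and are genes, not replicates. Over the 13694 tested genes with a canonical transcript in GENCODE release 44, r was 0.62 and rho 0.65, so the relation is one of the whole transcriptome. The median was -1.02 for the 2256 genes under 40% GC, 0.23 for the 2062 genes from 50% to 55% and 0.95 for the 2168 genes of at least 60%. REL, CHUK, NFKB1, NFKBIA and IKBKB lay below the median of their class, RELA lay above that of its class (0.61), and RELB, NFKBIB, NFKBIE and NFKB2 lay at or close to theirs.

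Transcript architecture differs too, but follows the order of the fold changes only in part. The canonical REL transcript has 11108 bases, of which 9080 follow the coding sequence (stop codon included), with a GC content of 36.9% in that part. CHUK has 3600 bases with 1301 after the coding sequence, at 31.8% GC. At the other end NFKB2 has 3015 bases with 151 after the coding sequence, and NFKBIB 1192 bases with 60. The 60 bases of NFKBIB, which rose with TMM scaling, have the lowest GC content of these parts among the 10 genes (25.0%). RELB has 2258 bases with 405 after the coding sequence, and NFKBIE, which rose, 2344 with 1056. IKBKB, which was not called, has 3938 bases with 1484 after the coding sequence, more than CHUK. Pearson's r between the log2 of transcript length and the log2 fold change was -0.72 over the 10 genes. With the GC and length correction it was -0.28. For the GC content of the coding sequences alone, r with the log2 fold change was 0.97 and rho 0.99.

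**Figure D3:**
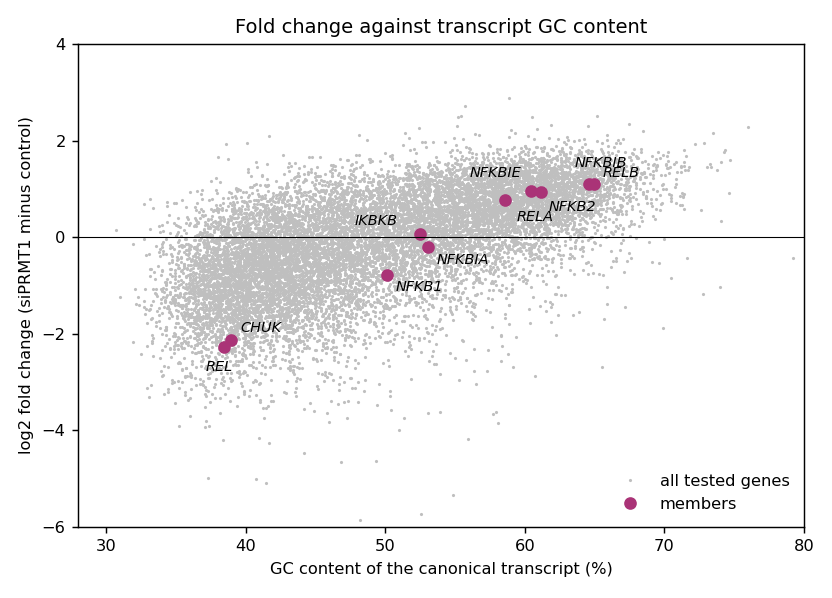
Log2 fold change (siPRMT1 minus control) against the GC content of the canonical transcript for all tested genes (grey) and the 10 genes (purple, named). REL and CHUK sit at the lower left at about -2 and the GC-rich members at the upper right at about 1.

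A fit that removes the part of each library's values that follows GC content and transcript length kept the direction of 9 of the 10 genes and turned that of NFKBIB, from 1.11 to -0.22. Over the 10 genes the corrected values still had an r of 0.81 and a rho of 0.61 with GC content. Over all genes 27.7% changed sign in this fit, and 80.5% passed the test in it, 44.9% higher and 35.6% lower, beside 5 higher and 5 lower of the 10. CHUK was the lowest of the 10 in this fit (-1.28, SE 0.0589, edgeR adjusted p = 4.89e-25), a place that REL held with TMM scaling. NFKBIA fell more, at -0.84 (SE 0.0252; adjusted p = 8.41e-33), REL less, at -0.82 (SE 0.114; adjusted p = 8.36e-09), and NFKB1 stood at -0.52 (SE 0.0406). The rises were small: NFKB2 0.31 (SE 0.0270), NFKBIE 0.16, RELB 0.14 and RELA 0.13, beside a median of 0.068 over all genes in this fit. IKBKB passed at 0.14 (adjusted p = 0.00313). Log2 ratios in this fit moved by 0.84 for NFKB2 to NFKB1, 1.42 for IKBKB to CHUK, -0.95 for REL to RELA and 1.00 for NFKBIE to NFKBIA, and by 0.0021 for RELB to RELA. For NFKBIB to NFKBIA the move was 0.62, against 1.32 without the correction. CHUK, NFKBIA, REL and NFKB1 thus fell in both fits, while the genes that rose in both had values of at most 0.31 after correction.

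**Figure D4:**
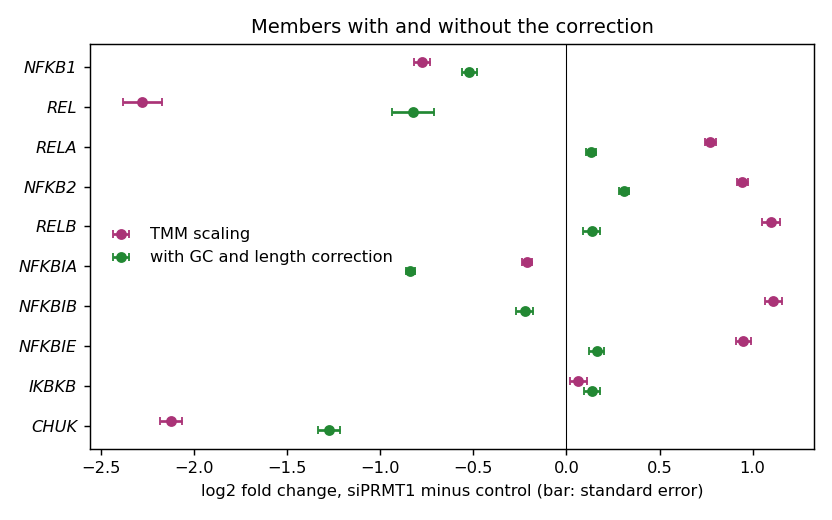
Log2 fold change with its standard error for the 10 genes with TMM scaling (purple) and with the added GC and length correction (green). NFKBIB crosses zero, NFKBIA moves further down to -0.84, and REL moves from -2.28 to -0.82.

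The other genes of the pathway were taken from 7 lists of 123 genes in all, of which 118 were tested; 47 rose and 62 fell, with a median log2 fold change of -0.12. All values that follow are log2 fold changes unless a unit is given, and the value with the GC and length correction is called corrected. Of 14 direct partners of the members, 5 rose and 9 fell (median -0.90, corrected -0.39). IKBKG, the regulatory subunit NEMO that holds the 2 kinases together, went from 26.4 ± 1.05 to 43.4 ± 0.460 CPM (0.72), but was lower after correction (-0.27). With TMM scaling the 3 subunits of the IKK complex thus lay in 3 positions, CHUK lower, IKBKB not called and IKBKG higher. CHUK and IKBKG were lower and IKBKB higher (0.14) after correction. CHUK and IKBKB (-0.25) were lower and IKBKG higher (0.40) with library size alone. The IKK-related kinase gene IKBKE rose (0.63, corrected 0.17), while TBK1 (-1.0, corrected -0.14) and the adaptor gene TANK (-1.73, corrected -1.10) fell.

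NIK is kept low in resting cells by TRAF2, TRAF3 and the ubiquitin ligases BIRC2 and BIRC3, and 3 of these 4 genes fell. BIRC3 went from 276, 273 and 265 CPM to 57.6, 62.9 and 59.98 CPM (-2.17, corrected -0.70), and BIRC2 went from 169 ± 3.96 to 64.0 ± 2.72 CPM (-1.40, corrected -0.42). TRAF3 fell (-0.80, corrected -0.46) and TRAF2 rose (1.07, corrected 0.22). MAP3K14, the NIK gene, had 30.2, 32.6 and 32.1 CPM against 28.8, 28.4 and 30.2 CPM (-0.12; edgeR adjusted p = 0.0207), with values of -0.41 corrected (adjusted p = 6.97e-11) and -0.44 with library size alone (adjusted p = 1.82e-16), so that the groups came close but did not overlap. The call with TMM scaling was lost without any of 4 single libraries (control 2 or 3, siPRMT1 1 or 2; from -0.099 to -0.11, adjusted p from 0.0528 to 0.103).

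Transcripts of nuclear and atypical IkB proteins moved apart. NFKBIZ (IkB-zeta, a nuclear coactivator of a subset of targets) went from 74.1, 69.7 and 74.5 to 16.8, 16.5 and 16.8 CPM (-2.13, corrected -1.66), while BCL3, a nuclear partner of p50 and p52, rose from 15.8 ± 0.407 to 42.4 ± 0.447 CPM (1.42, corrected 0.29), and NFKBID rose (1.49, corrected 0.47). The deubiquitinase genes TNFAIP3 (A20; -1.17, corrected -0.77) and CYLD (-1.66, corrected -0.37), both brakes on the IKK complex, fell.

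Of 31 receptors and adaptors of the canonical arm 13 rose and 17 fell (median -0.20, corrected -0.0054). After correction 14 were higher and 12 lower, where 44.9% of all genes were higher and 35.6% lower. With library size alone 9 were higher and 21 lower, where 33.5% of all genes were higher and 55.4% lower. The interleukin-1 receptor gene IL1R1 (-1.98, corrected -1.21) and BCL10 (-2.27, corrected -1.53), an adaptor of the MALT1 complex, fell; SHARPIN (1.43, corrected 0.13) and RBCK1 (1.12, corrected 0.66), subunits of the linear ubiquitin ligase LUBAC, rose. Some further genes were singled out after their values were seen. The third LUBAC subunit RNF31 rose as well (1.09, corrected 0.56), and the deubiquitinase gene OTULIN, which opposes LUBAC, fell (-0.53) but was higher after correction (0.52). The kinase gene MAP3K7 (TAK1; -1.68, corrected -0.61) and its partners TAB2 (-1.01, corrected -0.27) and TAB3 (-1.17, corrected -0.031) fell, while its partner TAB1 rose (0.49, corrected -0.062), and the interleukin-1 co-receptor gene IL1RAP fell with IL1R1 (-2.30, corrected -1.22).

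Of 9 tested receptors and ligands of the non-canonical arm 6 rose and 1 fell (median 0.46, corrected 0.050). After correction 3 were higher and 4 lower (44.9% and 35.6% of all genes). With library size alone 4 were higher and 2 lower (33.5% and 55.4% of all genes). TNFRSF12A, the receptor of TWEAK, went from 147 ± 4.25 to 393 ± 4.22 CPM (1.42, corrected 0.10), and the lymphotoxin-beta receptor gene LTBR from 79.5 ± 2.58 to 155 ± 3.77 CPM (0.96, corrected 0.050). TNFRSF1B (0.83, corrected 0.41) and the TWEAK gene TNFSF12 (0.56, corrected -0.67) rose too. TNFSF13B fell (-0.57, corrected 0.19) at 1.71 ± 0.183 against 1.16 ± 0.263 CPM, a call lost without control replicate 1 (-0.48, adjusted p = 0.0813) or siPRMT1 replicate 2 (-0.38, adjusted p = 0.160).

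Of 11 genes that ubiquitinate IkB proteins 6 rose and 5 fell, and the median was 0.16 with TMM scaling, 0.51 corrected and -0.16 with library size alone. After correction 8 were higher and 3 lower (44.9% and 35.6% of all genes). With library size alone 3 were higher and 7 lower (33.5% and 55.4% of all genes). The ligase recognizes phosphorylated IkB through BTRC or FBXW11. FBXW11 fell from 88.3 ± 2.82 to 23.2 ± 0.669 CPM (-1.93, corrected -1.23), and BTRC by less, from 29.8 ± 1.06 to 24.3 ± 1.5 CPM (-0.30, but 0.53 corrected). The scaffold gene CUL1 (-0.20, but 0.25 corrected) and the conjugating enzyme genes UBE2D1 (-1.54, corrected -0.54) and UBE2D3 (-0.22, but 0.73 corrected) fell. NEDD8 (1.40, corrected 0.75), whose product activates cullins, CDC34 (1.62, corrected 0.34) and SKP1 (0.67, corrected 1.91) rose. Of 18 cofactors and modifiers of RELA 9 rose and 8 fell, with a median of 0.28 that was -0.038 with library size alone. The acetyltransferase gene EP300 went from 63.5 ± 0.533 to 16.0 ± 1.47 CPM (-1.98, corrected -1.28), and the lysine methyltransferase gene SETD7 fell too (-1.47, corrected -0.44). The kinase gene RPS6KA4 (MSK2; 1.14, corrected 0.43), whose product phosphorylates RELA, rose.

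Of 18 tested cytokine and chemokine targets 12 fell and 3 rose (median -0.46, corrected -0.40). After correction 13 fell and 1 rose, where 35.6% of all genes were lower and 44.9% higher. The 1 that rose after correction was CXCL10 (0.30, edgeR adjusted p = 0.00019), looked up after the counts were seen. CXCL10 was not called with TMM scaling (0.068, edgeR adjusted p = 0.350). IL6 went from 99.9, 99.4 and 98.9 to 46.0, 48.0 and 49.3 CPM (-1.06, corrected -1.16), CXCL8 from 290.5 ± 2.10 to 84.8 ± 2.60 CPM (-1.78, corrected -1.08) and CXCL3 from 13.8 ± 0.802 to 4.55 ± 1.35 CPM (-1.57, corrected -1.81). The 3 that rose with TMM scaling were CSF3 (0.83, but -0.22 corrected), CCL5 and CSF1 (0.10, but -0.25 corrected and -0.22 with library size alone). CCL5 stood at 0.88, but its corrected value of 0.098 did not pass the test (edgeR adjusted p = 0.626). Of 23 tested survival and other targets 14 fell and 6 rose (median -0.49, corrected -0.25). The cyclooxygenase gene PTGS2 (-3.05, corrected -1.91), the caspase inhibitor gene XIAP (-2.82, corrected -1.47), SOD2 (-1.54, corrected -0.25) and BIRC3 fell. BIRC3, TNFAIP3, NFKBIZ and CYLD are also among the direct partners, TRAF1 is also among the adaptors, and TNFRSF1B is in both receptor lists, so the lists are not independent. Across all genes tested the median was -0.0082, and 45.0% of genes fell. That median was 0.068 with the correction and -0.33 with library size alone.

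**Figure D5:**
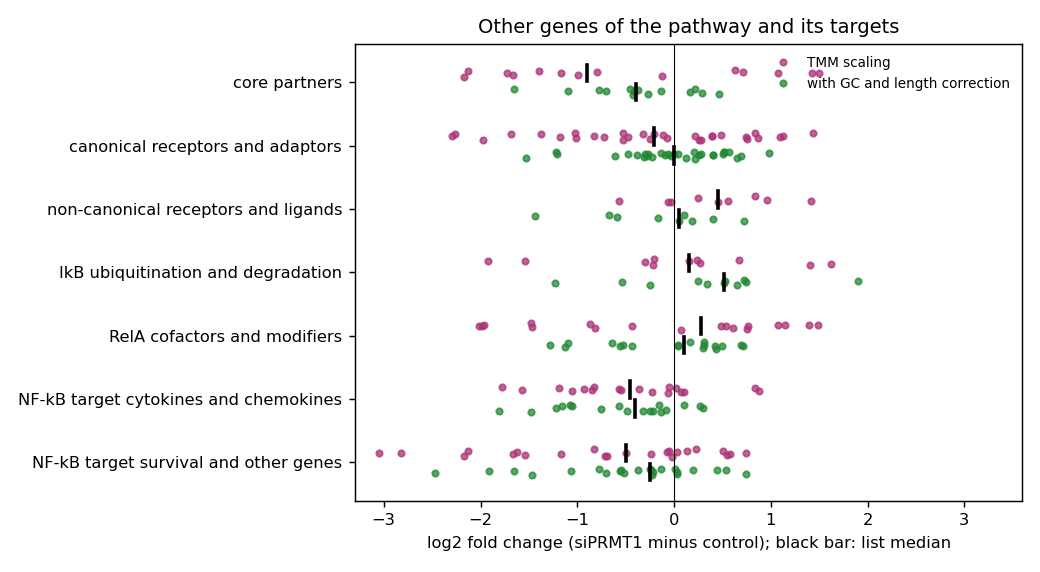
Log2 fold changes (siPRMT1 minus control) of the tested genes of the 7 pathway lists with TMM scaling (purple) and with the GC and length correction (green); each point is a gene and black bars are list medians. Both target lists have medians below zero in both fits (-0.46 and -0.40 for cytokines, -0.49 and -0.25 for the others).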

How the data were processed

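Raw counts of reads for each gene, whole numbers without normalization, were deposited by the authors in 1 table, with gene coordinates and a summed exon length, per the file headers. Build hg38 and the tools STAR 2.7.6a, Subread 1.5.1 with featureCounts, fastp 0.23.2 and edgeR 3.40.2 appear, without roles, in the submitters' processing notes. The sources used here do not name the annotation release or strand setting. The other deposited column used, Length, equals the summed exon length in GENCODE release 44 for 96.3% of 20472 shared identifiers, and canonical transcripts came from that release. Reads were made with a stranded mRNA kit, per the labels' protocols.

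Genes with low counts were removed with filterByExpr. Testing used edgeR 4.0.16 under R 4.3.3 (TMM, glmQLFit, glmQLFTest, Benjamini-Hochberg over 13710 genes, 0.05). The test was also run on simulated counts in which few genes changed. Most genes were called in these data, so that run does not bear on the scaling used here. The common dispersion, 9.77e-05, is the floor of the search. The GC and length correction fitted splines with 5 degrees of freedom per library to each property and used them as offsets. CPM are TMM-scaled. No pair of replicates agreed within sampling noise (chi-square over degrees of freedom 1.05 to 1.38). Same-numbered replicates did not deviate together.

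Genes named were the members, PRMT1, the direct partners, and from each other list the 4 smallest adjusted p and any minority of up to 5. A gene that the rule names is not reported here. Members and lists were chosen with earlier results of these data known. Alternatives were RLE, upper-quartile and library-size scaling, DESeq2 1.42.0, limma-voom (limma 3.58.1), 2 other filters, the replicate number as a block, the correction, glmTreat and leaving out each library. Shares by the deposited length, and all alternatives for the pathway lists, were added after seeing the data. Ratios and shares were computed in Python 3.11.15 with scipy 1.17.1.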

Additional observations from a re-analysis of the deposited data

How the results depend on the processing

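The count of 9 members past the threshold (5 higher, 4 lower) was the same under RLE and upper-quartile scaling, both other filters, DESeq2, limma-voom, the replicate block and without each single library; it was 10 with library size alone and with the correction, 5 higher and 5 lower in both. Scaling by library size alone shifted the median of all genes by -0.32, and the higher share of called genes was 37.7% against 49.6%. With glmTreat against a 2-fold change, 4111 of the 13710 genes tested passed. So did 36 of the 118 tested pathway genes (109 without glmTreat), which is near that background. Of the 10 members 4 passed, REL and CHUK lower and RELB and NFKBIB higher (2 and 2). Whether the share of members differs from the background was not tested. The replicate block left 12219 genes called against 12243; same-numbered libraries correlated between -0.010 and 0.037, so the numbers do not pair the samples.

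Among the members and the genes named by rule, the directions that turned after the GC and length correction were those of NFKBIB (-0.22; -0.23 with the replicate block added), IKBKG (-0.27 in both), BTRC (0.53 in both), CUL1 (0.25 in both), UBE2D3 (0.73 in both), CSF1 (-0.25 in both), CSF3 (-0.22 in both), TNFSF12 (-0.67 in both) and TNFSF13B (0.19; 0.20). OTULIN and TAB1, named after their values were seen, turned as well (0.52 and -0.062). The corrected values of TAB1 (edgeR adjusted p = 0.398) and TNFSF13B (edgeR adjusted p = 0.463) did not pass the test, so a reversal is not shown for these genes. With library size alone the directions that turned were those of IKBKB (-0.25), CSF1 (-0.22) and the medians of the IkB ubiquitination list (-0.16) and the RELA cofactor list (-0.038). With the deposited exon length the shares changed by -7.51 (NFKB1 and REL), -21.0 (NFKBIA) and -36.3 (CHUK) percentage points, against -11.7, -20.3 and -34.9 with the canonical transcript. REL in the siPRMT1 libraries rests on 49 to 60 reads each, which limits its precision more than that of the other members.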
